A study of Mus musculus with 6 samples.

Results

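This set of 44 genes encodes the bone morphogenetic protein (BMP) and transforming growth factor beta (TGF-beta) pathway: secreted ligands, their receptors, extracellular and membrane antagonists, the intracellular Smad proteins and a few well-known target genes. The genes were chosen by name and by known function in the pathway, with earlier results of these data known. On the arrays, 41 of the 44 had a probe set annotated to that gene alone, out of 18193 genes with such a probe set, and these 41 members were covered by 89 of the 45037 probe sets tested. *Bmp3*, *Gdf6* and *Gdf7* had no probe set of their own and were not analysed here.

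RNA was taken from the dorsal midbrain of mouse embryos on embryonic day (E) 10.5 and hybridized to Affymetrix A430 arrays, 3 for control and 3 for *Ezh2* conditional knockout (Ezh2 cko) embryos, in the strain C57BL/6. Ezh2 is the histone methyltransferase of Polycomb repressive complex 2, which places the repressive mark H3K27me3. By the methods, Ezh2 cko embryos were Wnt1-Cre+/Ezh2[SET]lox/lox, in which Cre removes the part of *Ezh2* encoding the catalytic SET domain. Controls, labelled WT, were by the methods littermates that either lacked Cre (Wnt1-Cre-/Ezh2[SET]lox/lox) or carried it together with a wild-type allele (Wnt1-Cre+/Ezh2[SET]wt/lox), so that control and mutant embryos alike carried a floxed allele. Every Ezh2 cko embryo carried Cre, and not every control had to, so carrying Cre and losing *Ezh2* cannot be told apart here. The *Wnt1* elements drive Cre in the dorsal midbrain and in neural crest. The study describes loss of Ezh2 protein in the midbrain from E10.5 on. In sections of a later stage than the tissue measured here, it describes the loss as complete caudally and only partial in the rostral dorsal midbrain. Each group came from 2 litters, to which the arrays were not assigned.

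BMP ligands bind pairs of type I and type II serine/threonine kinase receptors, which phosphorylate Smad1 and Smad5, while TGF-beta and activin ligands act through other receptors on Smad2 and Smad3. The phosphorylated Smads join Smad4, enter the nucleus and regulate targets such as the *Id* and *Msx* genes. In the dorsal neural tube, the roof plate and the overlying ectoderm are known sources of BMPs, which pattern dorsal cell types. Since whole dorsal midbrain was measured, a difference in the number of cells of a type and a difference in RNA per cell cannot be told apart.

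Values are log2 signals, and a log2 difference is the mean of the 3 Ezh2 cko arrays minus the mean of the 3 control arrays (n = 3 per group throughout), with its standard error (SE) from limma. P-values were adjusted over all 45037 probe sets by the Benjamini-Hochberg method. Each gene is represented by its probe set with the highest mean signal, and signals are compared between arrays only, never between genes. Nothing in the labels says whether an array held 1 embryo or a pool, so p-values measure the spread between these 6 arrays, whose small number limits the precision.

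One control array stood apart before any group comparison. Control 1 gave a signal of 11.70 for *Xist*, the RNA of the inactive X chromosome, while the other 5 arrays gave 5.13 to 5.36. Its signal for the Y-linked gene *Kdm5d* was 3.03 against 8.97 to 9.25. The labels do not give the sex, but by these genes control 1 held female RNA and the other 5 arrays male RNA. The sexes were thus not balanced between the groups. The median of 19 neuronal marker genes on control 1 lay 0.46 log2 units below their mean over the 6 arrays, and that of 14 mesenchymal markers 0.40 below. Values without this array are given beside the results that it moved most. The probe set of *Ezh2* did not differ (11.69, 11.76 and 11.66 in control, 11.79, 11.74 and 11.72 in Ezh2 cko, log2 difference 0.05, limma adjusted p = 0.918). Its position relative to the deleted part was not established here, so it does not check the deletion.

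Of the 41 members, 1 rose in Ezh2 cko midbrain and none fell at an adjusted p under 0.05, compared with 0.297% of all genes that rose and 0.0055% that fell. The member that rose was *Gdf10*, which was also the only member past the threshold of the methods (a minimum fold change together with an unadjusted p of at most 0.01), a threshold that 0.374% of all genes passed upward. At an unadjusted p under 0.05, 12 members (29.3%) were higher and 0 lower, where 6.12% of all genes were higher and 2.75% lower. In 14 members (34.1%) every Ezh2 cko array lay above every control array, compared with 7.52% of all genes, and in 2 members, *Smad2* and *Smad5*, every Ezh2 cko array lay below, compared with 7.88%. The median log2 difference over the members was 0.049, beside -0.019 over all genes, and 26 of 41 were positive. The 12 members with an unadjusted p under 0.05 were 6 ligands, 2 receptors, 2 antagonists and the 2 *Msx* genes, and no Smad was among them.

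**Figure D1:**
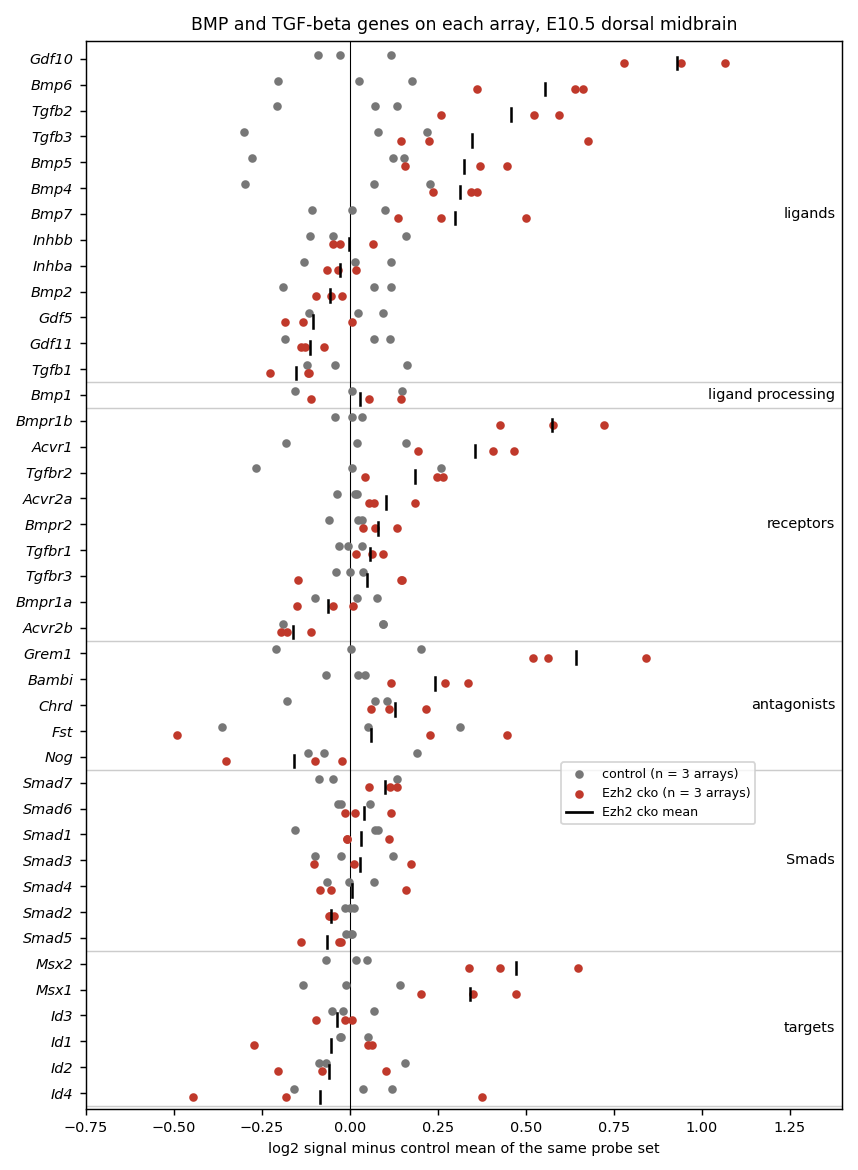
Log2 signal of each of the 41 members on the 6 arrays, relative to its mean in control, ordered by role. Grey points are the 3 control arrays, red points the 3 Ezh2 cko arrays and black bars the Ezh2 cko means; *Gdf10* shows the widest separation, with a gap of 0.66, and the bars of the Smads lie between -0.06 and 0.10.

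*Gdf10*, which encodes a secreted ligand of the family closely related to BMP3, showed the largest difference of the set. Its log2 signals were 5.99, 6.14 and 5.93 in control and 6.96, 6.8 and 7.09 in Ezh2 cko midbrain. All Ezh2 cko arrays were above all control arrays, with a gap of 0.66 between the groups. The log2 difference of 0.93 (SE 0.0985), a 1.90-fold higher signal with a 95% interval of 0.70 to 1.15 on the log2 scale, had a limma adjusted p of 0.0136. The gene had 1 probe set, so no other set of the array bears on it. Leaving out single arrays gave log2 differences of 0.86 to 1.0 and adjusted p values of 0.0303 to 0.0682, under 0.05 only without Ezh2 cko 2.

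Since Polycomb complexes in mammals are known to gather at CpG-rich promoters, the sequences upstream of the members were examined. RefSeq (GRCm38.p6) gave an upstream window for 29 of the 44 genes, and the 250 bases before each start were used. These windows held a median of 22 CpG dinucleotides, beside 6 over 27025 genes, and 69.0% of them held 20 or more, beside 17.7%. The 27025 are all genes with such a window, whether or not the arrays measured them. Printed are those of the ligand that rose (*Gdf10*), of the antagonist and the target with the largest differences (*Grem1* and *Msx2*) and, for contrast, of a target without a difference (*Id3*), each read 5′ to 3′ on the strand of its gene. Capitals mark the letters searched on both strands, which are GGCGCC, a core known to be bound by Smad1 and Smad5, its variant GGAGCC, and CAGAC, which holds the core bound by Smad3 and Smad4.
Gdf10, chr14:33923337-33923586 (+ strand): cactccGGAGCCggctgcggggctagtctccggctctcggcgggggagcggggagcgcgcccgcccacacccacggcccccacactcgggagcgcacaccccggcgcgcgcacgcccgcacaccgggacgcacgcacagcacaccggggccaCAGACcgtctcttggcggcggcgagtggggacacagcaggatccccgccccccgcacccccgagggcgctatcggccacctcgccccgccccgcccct
Grem1, chr2:113758649-113758898 (- strand): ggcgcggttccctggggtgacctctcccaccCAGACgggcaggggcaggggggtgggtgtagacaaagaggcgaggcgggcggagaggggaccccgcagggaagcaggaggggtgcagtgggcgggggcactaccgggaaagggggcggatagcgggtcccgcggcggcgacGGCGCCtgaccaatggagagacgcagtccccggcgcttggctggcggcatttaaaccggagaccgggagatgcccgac
Msx2, chr13:53472781-53473030 (- strand): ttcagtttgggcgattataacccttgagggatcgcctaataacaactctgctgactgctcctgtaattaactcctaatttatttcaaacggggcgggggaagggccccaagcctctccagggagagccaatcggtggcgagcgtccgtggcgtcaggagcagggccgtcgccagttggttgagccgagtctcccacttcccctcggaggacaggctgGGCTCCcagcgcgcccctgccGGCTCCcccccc
Id3, chr4:136143572-136143821 (+ strand): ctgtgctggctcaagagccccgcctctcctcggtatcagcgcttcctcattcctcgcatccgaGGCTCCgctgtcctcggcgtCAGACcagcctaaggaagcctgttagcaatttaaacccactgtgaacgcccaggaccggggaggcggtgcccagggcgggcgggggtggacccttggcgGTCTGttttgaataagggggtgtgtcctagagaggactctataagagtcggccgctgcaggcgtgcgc
The windows of *Gdf10*, *Grem1*, *Id3* and *Msx2* held 35, 24, 18 and 16 CpG dinucleotides. Among members higher in Ezh2 cko at an unadjusted p under 0.05, windows held from 1 (*Bmpr1b*) to 46 (*Acvr1*). Among the other members they held from 3 (*Inhba*) to 49 (*Acvr2a*). The windows of *Bmpr1b* and *Inhba* lie inside the spans of these genes. Their low counts therefore need not hold for the outermost start of either gene. A relation between CpG count and log2 difference was not tested. GGAGCC occurred once in *Gdf10* and *Id3* and at 2 places in *Msx2*, GGCGCC occurred in *Grem1* alone, and CAGAC was in *Gdf10*, *Grem1* and *Id3* but not in *Msx2*. No matches overlapped in these 4 windows. Over the members, 24.1% of windows held GGCGCC and 55.2% GGAGCC, compared with 9.54% and 25.7% of all windows of that length, and 34.5% held CAGAC, compared with 42.1%. Both GC-rich words occur more often in CpG-rich sequence, and no binding or chromatin was measured on these arrays, so the matches are a description of the letters.

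Among the 13 ligands, 6 had an unadjusted p under 0.05, all of them higher in Ezh2 cko, and their median log2 difference was 0.30. *Bmp6*, a BMP of the subgroup that also holds *Bmp5* and *Bmp7*, gave 6.85, 7.23 and 7.08 in control and 7.71, 7.41 and 7.69 in Ezh2 cko. The groups did not overlap, and the log2 difference was 0.56 (SE 0.122, limma adjusted p = 0.207). *Bmp7*, a roof plate BMP, gave 7.87, 8.07 and 7.98 against 8.48, 8.23 and 8.11, a log2 difference of 0.30 (adjusted p = 0.560). The Ezh2 cko values again lay above the control values, the first Ezh2 cko array being the highest. The dimmer *Bmp7* sets gave 0.16 and -0.18, both with overlap (limma adjusted p = 0.850 and 0.711). With the mean of all its sets or its set of highest variance, *Bmp7* did not keep an unadjusted p under 0.05.

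*Bmp5*, expressed in dorsal midline tissue, gave 7.10, 7.53 and 7.50 in control and 7.82, 7.53 and 7.74 in Ezh2 cko, a log2 difference of 0.32 (limma adjusted p = 0.626). *Bmp4*, a main dorsalizing ligand, gave 7.67, 8.20 and 8.04 against 8.31, 8.33 and 8.20, a log2 difference of 0.31 (adjusted p = 0.637). In both genes the groups were separated by less than 0.01 log2 units, and control 1 was the lowest array. Without control 1 the log2 differences were 0.19 for *Bmp5* and 0.16 for *Bmp4*, and that of *Bmp7* was 0.25.

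*Tgfb2*, a TGF-beta isoform, was read by 4 probe sets. The set with the highest mean gave 5.81, 6.09 and 6.15 in control and 6.27, 6.61 and 6.54 in Ezh2 cko, a log2 difference of 0.46 (SE 0.122, limma adjusted p = 0.337). A further set gave 5.44, 5.99 and 5.96 against 6.53, 6.64 and 6.65, a log2 difference of 0.81 (adjusted p = 0.0977). That set passed the threshold of the methods, and it and *Gdf10* were the only 2 of the 89 sets that did. The remaining *Tgfb2* sets gave 0.61 (adjusted p = 0.258) and 0.04. In 3 of the 4 sets the Ezh2 cko arrays lay above the controls.

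*Tgfb3*, the isoform best known from palate and lung development, overlapped between groups, with 5.67, 5.81 and 5.29 in control and 6.26, 5.81 and 5.73 in Ezh2 cko (log2 difference 0.35, SE 0.170, limma adjusted p = 0.712). *Inhbb*, which encodes the beta B subunit of activin, had no difference at its brightest set (0.00, adjusted p = 0.999). At its dimmer set, however, it gave 4.15, 4.34 and 4.65 in control and 5.16, 4.84 and 5.39 in Ezh2 cko, without overlap (log2 difference 0.75, adjusted p = 0.20). The sets of this gene thus disagreed. The other 5 ligands had small negative log2 differences. These were -0.03 for *Inhba*, the beta A subunit of activin, -0.06 for *Bmp2*, the close relative of *Bmp4*, and -0.10 for *Gdf5*, a ligand of joint formation. *Gdf11*, which acts in axial patterning, had -0.11, and *Tgfb1*, the founding isoform, -0.15, and the adjusted p of these 5 was 0.773 or higher. *Bmp1*, which despite its name is a metalloproteinase that cleaves procollagen and the antagonist Chordin, had 0.03 (adjusted p = 0.973).

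**Figure D2:**
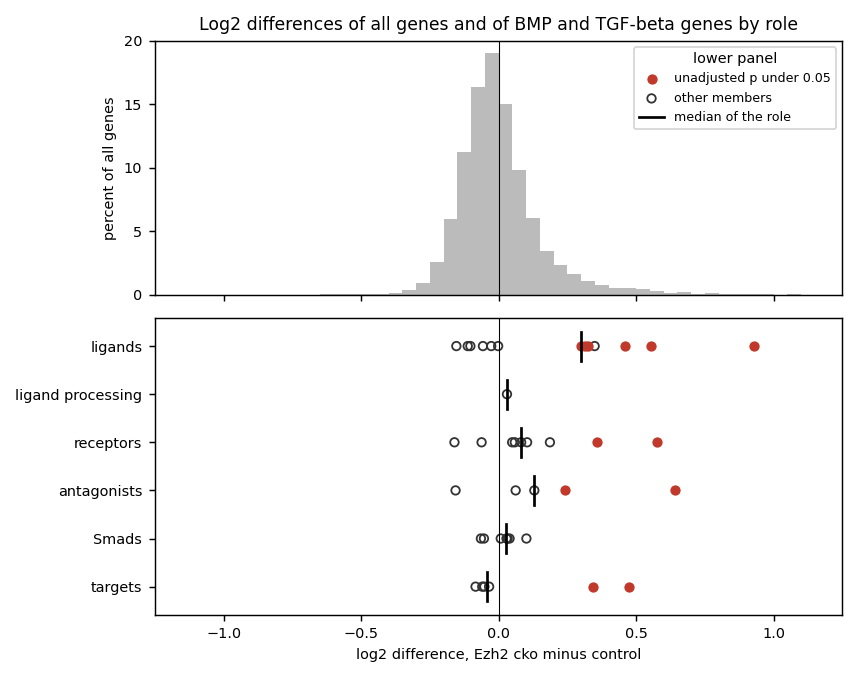
Upper panel, log2 differences (Ezh2 cko minus control) of all 18193 genes in percent of genes per bin; lower panel, the 41 members by role on the same axis. Filled red points have an unadjusted p under 0.05 and black bars are role medians; all 12 filled points lie above 0, at 0.24 to 0.93, and none is a Smad.

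The 9 receptors had a median log2 difference of 0.082, and 2 had an unadjusted p under 0.05. *Bmpr1b*, a type I receptor for BMPs, gave 7.79, 7.84 and 7.87 in control and 8.26, 8.41 and 8.56 in Ezh2 cko. Control arrays were within 0.1 log2 units of each other and every Ezh2 cko array was higher, with a gap of 0.39. The log2 difference was 0.58 (SE 0.0918), a 1.49-fold higher signal, at a limma adjusted p of 0.0712. It was the smallest adjusted p among the members after *Gdf10*. The 2 dimmer *Bmpr1b* sets gave -0.03 and 0.17.

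*Acvr1*, a type I receptor used by BMP6 and BMP7, gave 8.85, 9.05 and 9.19 in control and 9.49, 9.44 and 9.22 in Ezh2 cko (log2 difference 0.36, SE 0.112, limma adjusted p = 0.458). The groups were separated by 0.034 log2 units. *Tgfbr2*, the type II receptor of TGF-beta, gave 8.36, 8.89 and 8.63 against 8.90, 8.88 and 8.67 and overlapped (0.19, SE 0.134, adjusted p = 0.815). Of the receptors shared by activins and BMPs, *Acvr2a* had 0.10 and did not overlap. *Acvr2b* gave 9.16, 9.45 and 9.45 in control and 9.16, 9.17 and 9.24 in Ezh2 cko, with overlap (-0.16, SE 0.0964, adjusted p = 0.767). A dimmer *Acvr2b* set gave 7.37, 7.31 and 7.55 against 7.0, 6.85 and 7.0, with every Ezh2 cko array below the controls (-0.46, adjusted p = 0.157), and the third set was also lower without overlap (-0.16, adjusted p = 0.711). It was thus the receptor with the most negative values, and none passed the adjusted threshold. The BMP type II receptor *Bmpr2* had 0.08, separated by 0.0034 log2 units, the TGF-beta type I receptor *Tgfbr1* had 0.06, the co-receptor betaglycan (*Tgfbr3*) had 0.05, and the BMP type I receptor *Bmpr1a* had -0.06, all at an adjusted p of 0.854 or higher.

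The 5 antagonists gave 2 genes with an unadjusted p under 0.05 and a median log2 difference of 0.13. *Grem1* encodes Gremlin, a secreted protein that binds BMP2, BMP4 and BMP7. Its signals were 5.68, 5.88 and 5.47 in control and 6.52, 6.24 and 6.20 in Ezh2 cko, and the groups were 0.32 log2 units apart. The log2 difference was 0.64 (SE 0.127), a 1.56-fold higher signal at a limma adjusted p of 0.155, the second largest difference of the set.

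*Bambi*, a membrane pseudoreceptor without kinase and itself a known BMP target, gave 8.68, 8.59 and 8.70 in control and 8.99, 8.93 and 8.77 in Ezh2 cko (log2 difference 0.24, SE 0.0853, limma adjusted p = 0.542). The groups did not overlap. *Chrd*, which encodes the BMP-binding protein Chordin, gave 6.14, 6.10 and 5.85 against 6.25, 6.14 and 6.09 (0.13, SE 0.0973, adjusted p = 0.822), and *Nog*, which encodes the BMP-binding protein Noggin, gave 4.15, 3.88 and 3.83 against 3.60, 3.93 and 3.86 (-0.16, SE 0.117, adjusted p = 0.822). Both overlapped, and *Nog*, like *Gdf5*, had a mean signal below the 25th percentile of probe sets. *Fst*, which encodes the activin-binding protein Follistatin, had a log2 difference of 0.06 with the widest spread of the antagonists (SD 0.34 in control and 0.49 in Ezh2 cko, adjusted p = 0.977).

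At their brightest probe sets, none of the 7 Smad genes had an unadjusted p under 0.05, and their log2 differences lay between -0.06 and 0.10, with 95% intervals within -0.23 and 0.29. *Smad7*, an inhibitory Smad, gave 7.85, 7.89 and 8.07 in control and 7.99, 8.07 and 8.05 in Ezh2 cko (0.10, SE 0.0848, limma adjusted p = 0.846), and *Smad6*, the inhibitory Smad of the BMP branch, gave 8.12, 8.21 and 8.13 against 8.27, 8.14 and 8.17 (0.04, SE 0.0764, adjusted p = 0.945). In both, the groups overlapped. *Smad5*, a BMP-activated Smad, gave 10.52, 10.51 and 10.52 against 10.49, 10.49 and 10.38 (-0.06, SE 0.0731, adjusted p = 0.891). *Smad2*, activated by TGF-beta and activin, gave 9.71, 9.70 and 9.72 against 9.67, 9.65 and 9.65 (-0.05, SE 0.0689, adjusted p = 0.909). In *Smad2* the arrays of each group lay within 0.03 log2 units of each other, while the *Smad5* arrays of Ezh2 cko spread over a wider range than the difference. Dimmer sets gave larger values for 2 genes. A *Smad5* set gave 7.11, 6.74 and 6.73 in control and 6.42, 6.70 and 6.49 in Ezh2 cko, with every Ezh2 cko array lower (-0.32, unadjusted p = 0.0314, limma adjusted p = 0.601), and a *Smad1* set gave 7.51, 7.53 and 7.66 against 7.64, 7.85 and 7.93, with overlap (0.24, unadjusted p = 0.0357, adjusted p = 0.619). At the brightest sets, the BMP-activated *Smad1*, the TGF-beta-activated *Smad3* and the common partner *Smad4* had 0.03, 0.03 and 0.01.

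The 6 target genes fell into those of the *Msx* and those of the *Id* family. *Msx2*, a homeobox gene induced by BMPs in dorsal neural tube and neural crest, gave 8.11, 8.02 and 8.14 in control and 8.74, 8.43 and 8.52 in Ezh2 cko. Control arrays lay close together and the Ezh2 cko arrays were all higher (log2 difference 0.47, SE 0.0962, limma adjusted p = 0.170). *Msx1*, its paralog, gave 9.80, 10.08 and 9.93 against 10.41, 10.14 and 10.29, also without overlap (0.34, SE 0.103, adjusted p = 0.425). Further probe sets of both genes were positive as well.

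The 4 *Id* genes, which encode dominant-negative helix-loop-helix proteins, had log2 differences of -0.03 (*Id3*), -0.05 (*Id1*), -0.06 (*Id2*) and -0.08 (*Id4*), with limma adjusted p values of 0.936 to 0.953. *Id4* gave 10.37, 10.65 and 10.56 in control and 10.08, 10.35 and 10.90 in Ezh2 cko (SE 0.189), and *Id2* gave 11.71, 11.70 and 11.94 against 11.58, 11.70 and 11.88 (SE 0.106). Both overlapped between groups. The 95% intervals of the *Id* genes together spanned -0.52 to 0.35, and that of *Id3* alone was -0.21 to 0.14. The other 2 sets of *Id4* were positive (0.15 and 0.14), and each of the *Id* genes changed sign under at least 1 alternative, so no direction can be read for them.

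**Figure D3:**
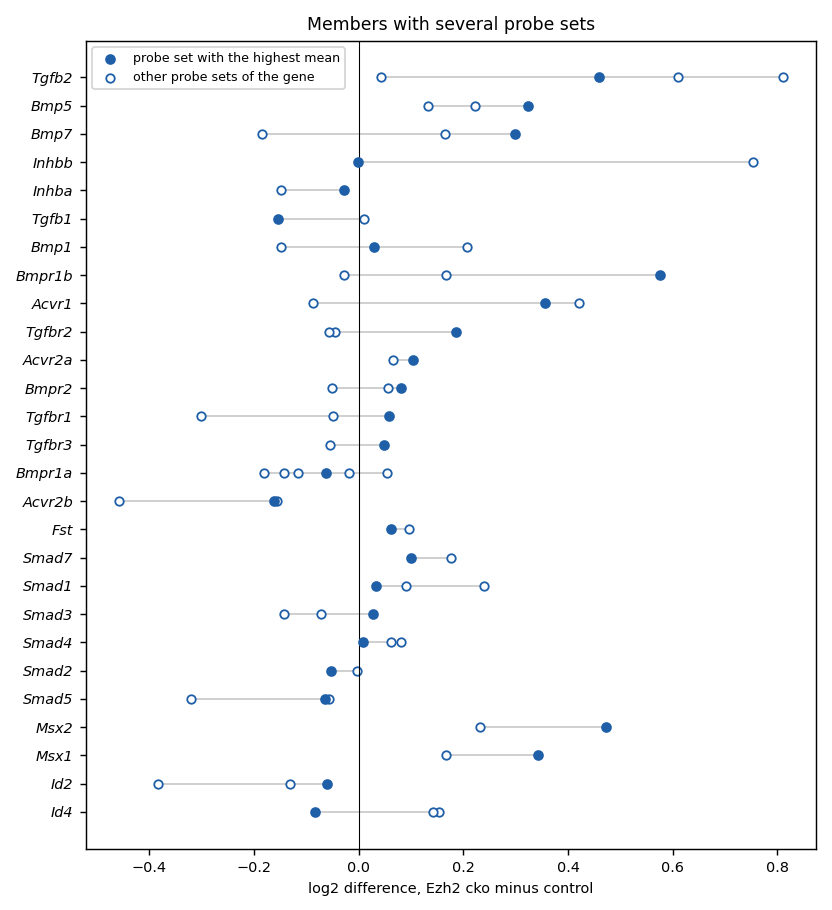
Log2 differences of all probe sets of the 27 members with several sets, the filled point being the set with the highest mean and grey lines joining the sets of a gene. The sets of 14 genes all lie on 1 side of 0 and those of 13 on both sides.

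How far the probe sets of a gene shared a direction varied. Of the 27 members with several sets, 14 had all sets on 1 side of 0, among them *Tgfb2*, *Bmp5*, *Msx1* and *Msx2*, and 13 had sets on both sides, among them *Acvr1*, *Bmp7* and *Bmpr1b*. Of the 89 probe sets, only that of *Gdf10* passed the adjusted threshold. By branch, as assigned from textbook function, 11 of 25 BMP members had an unadjusted p under 0.05, all higher, with a median log2 difference of 0.082. Of the 12 TGF-beta and activin members it was 1, with a median of 0.039, and of the 4 shared members 0. Of all genes, 6.12% were higher at that p, and 1 of 12 members is near that share. The difference between the branches was not tested.

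In all 12 members with an unadjusted p under 0.05 the groups did not overlap, so the highest array was always an Ezh2 cko and the lowest always a control array. Ezh2 cko 1 was the highest in 8 of the 12 (*Bmp6*, *Bmp5*, *Bmp7*, *Acvr1*, *Grem1*, *Bambi*, *Msx2* and *Msx1*), control 1 was the lowest in 8, and both held in 5. Over all genes, whether or not the groups overlapped, Ezh2 cko 1 was the highest in 15.1% and control 1 the lowest in 20.6%. These shares are not a matched baseline, since in the 12 members only arrays of 1 group could be highest or lowest. Without control 1, 9 members (22%) kept an unadjusted p under 0.05, compared with 4.88% of genes that were then higher, and *Bmp4*, *Bmp5* and *Bmp7* did not. Without Ezh2 cko 1, 8 members (19.5%) kept it, compared with 5.44% of genes, the 4 others being those 3 BMPs and *Bambi*. All 12 log2 differences stayed positive whichever array was left out, which the lack of overlap fixes in advance.

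**Figure D4:**
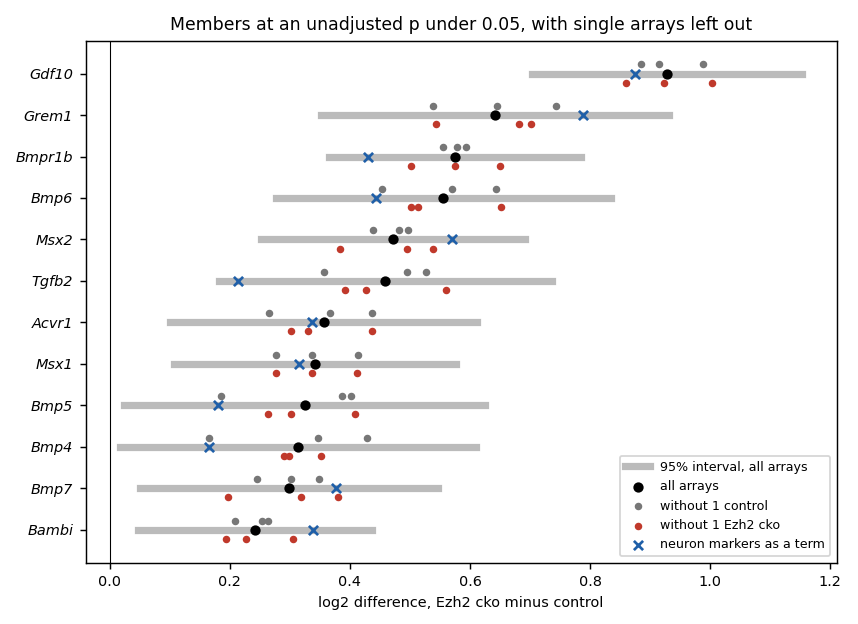
Log2 differences of the 12 members with an unadjusted p under 0.05, with all arrays (black, with the 95% interval in grey), without 1 control array (small grey points), without 1 Ezh2 cko array (red points) and with the neuronal marker level as a term (blue crosses). Every point lies above 0, which the lack of overlap fixes in advance for the points with arrays left out. *Gdf10* ranges from 0.86 to 1.0 when single arrays are left out.

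Markers of several cell types moved with the groups. Of 8 roof plate markers, 7 had positive log2 differences and 5 an unadjusted p under 0.05, with none past the adjusted threshold. On each array, the median of the list, after centring each gene on its 6 arrays, was -0.17, -0.16 and -0.19 in control and 0.36, 0.10 and 0.16 in Ezh2 cko, highest on Ezh2 cko 1. *Wnt1*, the roof plate Wnt whose elements drive Cre here, had a log2 difference of 0.90 (limma adjusted p = 0.0712) and *Lmx1b*, a roof plate homeobox gene, 0.57 (adjusted p = 0.214), while *Lmx1a*, a defining roof plate factor, had -0.16 with every Ezh2 cko array below the controls. Of 7 neural crest markers measured, 6 were positive and 3 had an unadjusted p under 0.05. The centred median was -0.21, -0.16 and -0.12 in control and 0.02, 0.08 and 0.14 in Ezh2 cko, and the defining markers *Sox10* and *Foxd3* had -0.06 and 0.00.

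Of 15 markers of surface ectoderm and epithelium, 9 had positive and 6 negative log2 differences. At an unadjusted p under 0.05, 5 were higher and 1 lower. The lower one was *Esrp1* (-0.63, limma adjusted p = 0.276), with every Ezh2 cko array below the controls. Past the adjusted threshold 2 rose, the only genes of the cell type lists to do so. *Epcam*, which encodes an epithelial adhesion protein, gave 7.79, 7.63 and 7.58 in control and 9.08, 9.03 and 8.88 in Ezh2 cko (log2 difference 1.33, SE 0.0904, limma adjusted p = 0.0037). *Cdh1*, which encodes E-cadherin, gave 6.91, 7.13 and 7.15 against 7.85, 7.80 and 7.84 (0.77, SE 0.0864, adjusted p = 0.0166). Both stood clear of the controls and kept an adjusted p of 0.0117 and 0.0463 without control 1. The median of that list was 0.04, with the centred array values overlapping between groups.

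Of 14 mesenchymal markers measured, 13 were positive and 7 had an unadjusted p under 0.05, at a median log2 difference of 0.35. The centred median was -0.40, 0.03 and -0.02 in control and 0.04, 0.12 and 0.25 in Ezh2 cko, and without control 1 the median log2 difference was 0.14 with 5 genes at that p. The 19 neuronal markers overlapped between groups, with -0.46, -0.05 and -0.01 in control and -0.08, 0.17 and 0.39 in Ezh2 cko. Their median log2 difference was 0.36 with 10 genes at an unadjusted p under 0.05, and without control 1 it was 0.23 with 2 genes. For macrophages the median was 0.23, and 0.07 without control 1. The median log2 differences were 0.28 for roof plate and 0.11 for neural crest (0.30 and 0.13 without control 1), 0.06 for endothelium, 0.04 for neural progenitors and -0.02 for erythroid cells. Array signals have no zero level, so absence of a marker could not be read. With the neuronal marker level as a term in the fit, 7 of the 12 members kept an unadjusted p under 0.05 and all 12 stayed positive. The part of the other marker lists in these results was not tested.

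**Figure D5:**
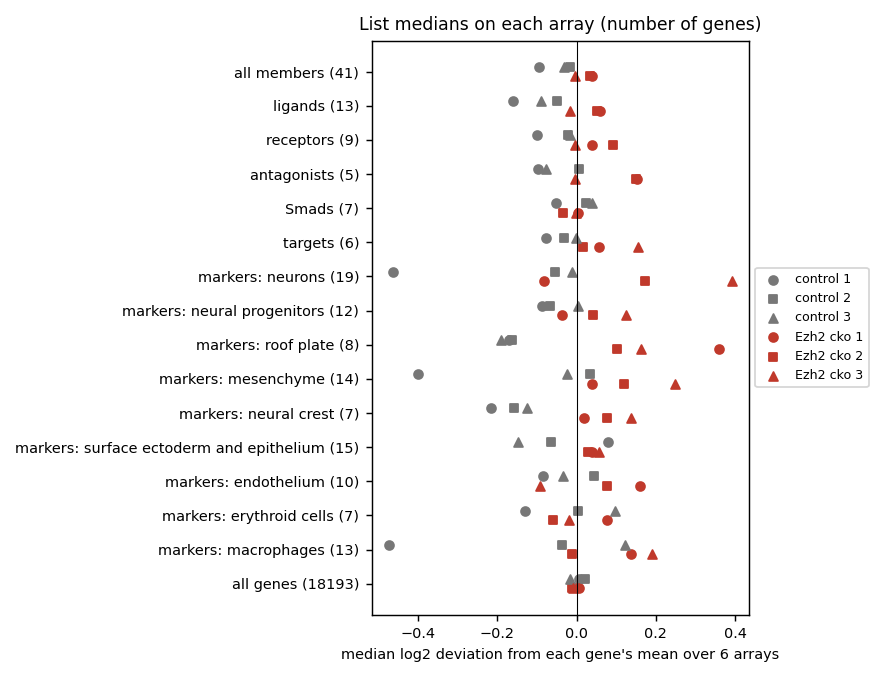
Median of each list after every gene was centred on its own 6-array mean (log2); grey symbols are control and red symbols Ezh2 cko arrays, with circles, squares and triangles for replicates 1, 2 and 3. The roof plate list is lowest on the 3 controls, at -0.19 to -0.16, and control 1 is far below the other arrays for neurons, mesenchyme and macrophages.

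A wider list of 76 further pathway genes, of which 69 were measured, gave none past the adjusted threshold. At an unadjusted p under 0.05, 8 (11.6%) were higher and 2 (2.9%) lower, beside 6.12% and 2.75% of all genes, and the median log2 difference was 0.036. Most of the higher ones were the 5 of 19 extracellular regulators, led by *Sostdc1*, a secreted BMP and Wnt antagonist (0.60, limma adjusted p = 0.450), and *Bmper*, a BMP-binding secreted protein (0.51, adjusted p = 0.111). *Bmper* gave 4.75, 4.67 and 4.74 in control and 5.39, 5.21 and 5.09 in Ezh2 cko, without overlap.

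Among 10 further target genes, 2 had an unadjusted p under 0.05. *Tbx3*, a T-box gene known as a BMP target, gave 4.85, 4.64 and 4.67 in control and 5.19, 5.25 and 5.47 in Ezh2 cko (log2 difference 0.59, limma adjusted p = 0.0894), and the TGF-beta-induced matrix gene *Tgfbi* had 0.52 (adjusted p = 0.325). Neither overlapped between groups. Of 11 further receptors and co-receptors, *Rgma*, which encodes a BMP co-receptor and guidance molecule, had the most negative value (-0.42, adjusted p = 0.504) with every Ezh2 cko array below the controls, followed by *Amhr2*, the receptor of anti-Müllerian hormone (-0.23, adjusted p = 0.766). The 14 further ligands, led by *Inha* (the inhibin alpha subunit, 0.25) and *Gdf9* (an oocyte ligand, -0.11), and the 15 intracellular regulators, led by *Pmepa1* (a TGF-beta-induced inhibitor of Smad signaling, 0.29) and *Tob1* (an antiproliferative protein, 0.24), gave 1 gene each with an unadjusted p under 0.05. These were *Inha*, which was higher, and *Tgif2*, a Smad corepressor, which had -0.22 (adjusted p = 0.646) with every Ezh2 cko array below the controls.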

How the data were processed

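Total RNA of E10.5 dorsal midbrain was measured on 6 Affymetrix A430 arrays, 3 control and 3 Ezh2 cko, grouped by the labels. The deposited log2 values were made by the authors with RMA (background correction, quantile normalization and summarization per probe set), whose version is not given in the sources used here. RMA moves all arrays to 1 distribution, so a shift of all genes cannot be seen. Probe sets were named from the platform annotation, which gave 34945 sets 1 symbol, 932 several and 9160 none, and 64 control sets were left out. Ezh2 cko was compared with control with limma 3.58.1 (lmFit and eBayes, R 4.3.3) over 45037 probe sets, with Benjamini-Hochberg adjustment, after the code was tested on simulated data. All pairs of arrays correlated at r of 0.9932 or higher. Genes past the adjusted p or the threshold of the methods and the 4 largest absolute differences per role are described in full, and of each wider list at most 2. Other genes, among them *Wnt1*, *Epcam*, *Cdh1*, *Tgif2* and the BMPs beyond those 4, were named after their values were seen. The members and lists were chosen with earlier results of these data known. Alternatives covered the test, its prior, array weights, scaling, probe set choice and single arrays.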

Additional observations from a re-analysis of the deposited data

How the results depend on the processing

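None of the 12 members with an unadjusted p under 0.05 changed sign under any of the 18 alternatives. Where single arrays were left out or arrays were weighted, the lack of overlap fixes these signs in advance. Student's t-test, the trended and robust prior, the replicate block and the filter on dim sets leave these log2 differences as they are. The signs could change only with another scaling, another choice of probe set or the neuronal term. The median log2 difference of the members stayed at 0.031 to 0.08 under the alternatives. *Gdf10* kept its direction throughout but lost the adjusted threshold under some alternatives, leaving 0 members past it. These were Student's t-test (0.419 adjusted), the replicate block (0.0598) and neuronal markers as a term (log2 difference 0.87, adjusted p = 0.164). Leaving out single arrays gave 0 to 1 members, 20 to 44 higher probe sets (83 with all arrays) and 1 to 4 lower (2). At the adjusted p, Student's t-test gave 0 higher and 0 lower probe sets. The methods name that test without tying it to the arrays. The neuronal term gave 6 and 1, and a trended and robust prior 106 and 5. Members at an unadjusted p under 0.05, a count added after seeing the data, ranged from 8 to 13 higher and 0 to 1 lower without single arrays. Of all genes, 4.88% to 6.34% were then higher and 1.85% to 4.32% lower. Lower members were 1 under the t-test, 3 with the neuronal term, 1 with the mean of all probe sets and 2 with the set of highest variance. The shares of all genes that were lower were 3.66%, 2.37%, 3.5% and 3.74%. Under the t-test and with the neuronal term 8 members were higher, compared with 4.51% and 4.03% of all genes. The set of highest variance put 2 members past the threshold of the methods. Members without overlap numbered 14 to 17 higher and 2 to 5 lower without single arrays, when 10.9% to 13.3% of all genes were higher without overlap. By median centring and with the set of highest variance 11 were higher, compared with 7.43% and 6.99% of all genes. Lower ones numbered 1 after a further quantile normalization and 0 after cyclic loess. For lower ones the share of all genes is given only with all arrays, where it was 7.88%, beside 2 of 41 members.

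Replicate numbers did not pair the arrays (correlations of deviations 0.0649, -0.203 and 0.0633 for numbers 1, 2 and 3), and the replicate block gave 12 members higher at an unadjusted p under 0.05, of which 11 were among those without it (*Bmp5* was lost and *Tgfb3* gained). 

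Changes of sign were confined to members whose log2 differences lay within 0.1 of 0. Array weights gave *Inhbb* 0.029 and *Smad4* -0.026, and *Inhbb* became 0.00056 by median centring and 0.0091 by cyclic loess. The neuronal term gave *Inhba* 0.0651, *Inhbb* 0.11, *Bmpr1a* 0.0198, *Fst* -0.56, *Smad1* -0.11, *Smad4* -0.12, *Id1* 0.11 and *Id3* 0.0482. The mean of all sets gave *Inhbb* 0.38, *Tgfbr1* -0.10, *Tgfbr3* -0.0029, *Smad3* -0.0621 and *Id4* 0.0708, and the set of highest variance *Inhbb* 0.75, *Tgfbr1* -0.30, *Smad3* -0.14 and *Id4* 0.14. Single arrays left out moved across 0 the values of *Inhba* (-0.0927 to 0.0315), *Inhbb* (-0.0579 to 0.0781), *Bmp1* (-0.0472 to 0.105), *Bmp2* (-0.15 to 0.0020), *Fst* (-0.13 to 0.34), *Smad1* (-0.0448 to 0.0733), *Smad3* (-0.0445 to 0.0933), *Smad4* (-0.0692 to 0.0532), *Tgfbr3* (-0.0012 to 0.15), *Id1* (-0.11 to 0.058), *Id2* (-0.141 to 0.018) and *Id4* (-0.31 to 0.10). The cause of these changes was not tested. *Gdf5* and *Nog* did not pass the filter on dim sets, and 39 of 41 members did.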
